A study of Homo sapiens with 2 samples.

Results

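Crosslink sites of hnRNPM with a height of at least 75 were taken from the list of sites deposited for HMLE cells, an immortalised line derived from human mammary epithelium. The height is the score that the authors gave each site, and it was read as the number of reverse transcription stops at the site, which the file does not state. The members were chosen by this height, leaving out the plus strand of chromosome 11 at chr11:65190269-65213011 and chr11:65265233-65273940 (GRCh37), the loci known as NEAT1 and MALAT1. The rule gave 443 of the 54373 sites of the list, and 15 further sites lay in the left-out regions. Among the 54358 sites outside those regions the members made up 0.815%.

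The study made 2 libraries from wild-type HMLE cells, which the labels number as biological replicates 1 and 2. The cells were given DMSO and crosslinked with ultraviolet light, and an antibody against hnRNPM was used for the precipitation. They form a single group, so no treatment, genotype or time was compared. The file gives each site a single height and names no library, so the values below carry no error between replicates and library depths are unknown.

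hnRNPM is a nuclear RNA-binding protein with several RNA recognition motifs that prefers GU-rich RNA and takes part in splicing, often from within introns. In iCLIP, ultraviolet light links a protein to the RNA it touches, and reverse transcription then tends to stop beside the linked base, so that many stops at a position form a tall site. The height of a site depends both on how often the protein is linked there and on how much of the RNA is present. The 2 libraries of the series give no RNA levels, so the heights below do not rank binding strength.

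The list is on GRCh37 and the annotation at hand was on GRCh38, so the genes, exons, introns and base sequences at the members were not analysed here. Members are named by position, 1-based, with their strand. The names NEAT1 and MALAT1 were taken over with the definition of the left-out regions, and only the lengths were compared with RefSeq. The first region is 22743 nt long, the length RefSeq gives NEAT1. The second is 8708 nt long and differs from the 8779 nt given for MALAT1. Both genes make abundant nuclear long noncoding RNAs.

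The members had heights from 75 to 976, with a median of 92 and quartiles of 81 and 114.5. Of the 443 members, 177 (39.95%) reached a height of 100, 61 reached 150, 27 reached 200 and 7 reached 400. They held 5.92% of the summed height of the list, against 1.47% for the 15 left-out sites. The left-out sites were taller as a group, with a median of 645 and a range of 149 to 1969. The heights chose the members and are given as a description.

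There were 20 sites of height 74 and 17 of height 75. The first 4 sites inside, in order of chromosome name, lay at chr1:109421654-109421674, chr10:128605010-128605030 and chr11:483443-483463 on the plus strand and at chr12:46644379-46644399 on the minus strand, and their heights were 59.5, 24.8, 81.5 and 22.6 times the PH0 value. The first 4 just outside lay at chr1:171479818-171479838, chr10:76161611-76161631 and chr11:66413347-66413367 on the plus strand and at chr11:10168096-10168116 on the minus strand, and their heights were 53.2, 20.4, 66.7 and 39.6 times PH0 respectively. The ratios on either side of the edge thus overlapped.

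The tallest member lay at chr2:133012872-133012892 on the minus strand and had a height of 976. Another tall site, at chr2:133012746-133012766, had a height of 496, and the last of the group, at chr2:133012948-133012968, had one of 220. These 3 sites fell within 223 nt and were the only sites of the strand within 50 kb. The next tallest site, chr19:34882879-34882899 on the plus strand, had a height of 500, with 6 same-strand sites within 50 kb. It was followed by chr7:26231677-26231697 on the minus strand with 490 and by chrX:73071506-73071526 on the minus strand with 486. These leading sites lay on 4 chromosomes, and none of them had more than 6 same-strand sites within 50 kb.

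The next 5 sites had heights between 370 and 414. One of them, chr8:119055635-119055655 on the minus strand (414), had 82 same-strand sites within 50 kb. Its opposite in this respect was chr1:91852849-91852869 on the minus strand (399), which had none. The others, at chr9:21536838-21536858 (409), chr9:21536903-21536923 (380) and chr9:21538186-21538206 (370), formed a row on the minus strand. The 15 tallest members were completed by chr8:70602466-70602486 on the minus strand (328), chr19:54971454-54971474 on the plus strand (274), chr20:49532936-49532956 (261), chr10:47141178-47141198 (249) and chr15:60662594-60662614 (240), all 3 on the minus strand. Tall sites thus occurred both in crowded and in empty surroundings.

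Members were spread over all 22 autosomes and chromosome X, 206 of them plus-strand and 237 minus-strand sites (53.5% minus, against 48.7% of the other sites). Counted as loci, the strands were even, with 141 plus-strand and 143 minus-strand loci. The share of sites that were members lay between 0.252% and 1.09% on every chromosome except chromosome 8. The lowest share was that of chromosome 13, where 4 of 1589 sites were members (95% Wilson interval 0.0979% to 0.645%).

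Chromosome 8 stood apart, with 53 members among 3007 sites, or 1.76% (95% Wilson interval 1.35% to 2.30%). Members of a locus are not independent, so this interval covers the counting error of sites only. Of these 53 members, 41 were on the minus strand, and 34 lay in 8 loci with 3 or more members. Counted as loci, chromosome 8 had 24 loci, or 0.798 per 100 sites, against 0.522 over all chromosomes. Chromosome 21 had 0.808 loci per 100 sites, from 5 loci among 619 sites, so by loci chromosome 8 was not the highest. With so few loci on chromosome 21, the order of these 2 chromosomes is uncertain.

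**Figure D1:**
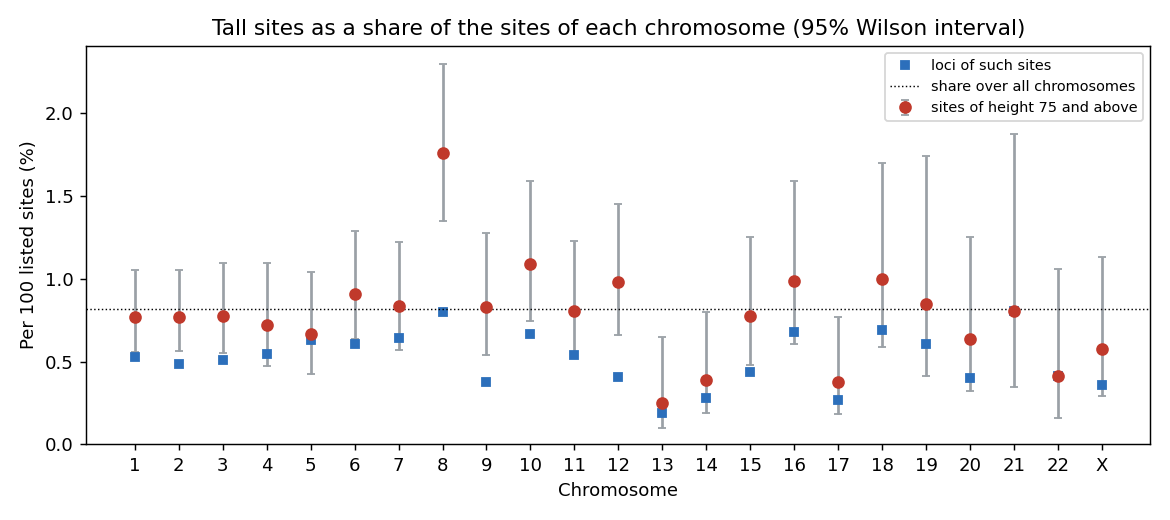
Red points give the members per 100 listed sites of each chromosome with 95% Wilson intervals (counting error only). Blue squares give the loci of members per 100 sites. The dotted line is the share of members over all chromosomes, 0.815%, and applies to the red points only. Loci over all chromosomes numbered 0.522 per 100 sites. Chromosome 8 lies at 1.76% for members and at 0.798 for loci.

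Members were next grouped by distance. Members of 1 strand were joined into a locus where gaps were at most 50 kb, which gave 284 loci. Joined in the same way, the 1954 sites of height 40 to 74 gave 975 loci and the 53915 other sites 6316. The number of loci depends on how many sites are joined, and whether members group more than other sites was not tested. The counts that follow are of the 284 loci of members. Of the 284 loci, 199 held a single member and 85 held 2 or more. The 85 loci contained 244 members, or 55.1% of all. There were 37 loci with 3 or more members, holding 148 members (33.4%), and 8 with 5 or more. Between consecutive members of a locus the median distance was 2810 nt (quartiles 649 and 11655 nt). Of the 159 such distances, 49 were under 1 kb and 43 were 10 kb or more.

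The locus with the largest sum of heights, chr9:21498227-21558453 on the minus strand, held 9 members over 60.2 kb. In order of position their heights were 93, 108, 409, 380, 370, 84, 160, 175 and 77. The 3 tallest followed each other at distances of 65 and 1283 nt. The 9 members were among 30 same-strand sites in the locus and within 50 kb of it, and they held 72.3% of the summed height there. Height over PH0 ran from 24.9 to 95.8 among the members, and it was highest for the site of height 160, whose PH0 was 1.67.

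The locus chr8:119047906-119119628 on the minus strand also held 9 members, over 71.7 kb, but among many more sites. Its members had heights of 104, 414, 114, 80, 153, 203, 138, 88 and 89. They were 9 of 102 same-strand sites within 50 kb of the locus and held 33.7% of the summed height. Each site name gives a tag cluster, read as the authors' grouping of overlapping tags, which the file does not state. The site of 414 was alone in its tag cluster and had a PH0 of 9.24. Among the other 8 members PH0 ran from 1.14 to 3.41. The remaining sites there had a median height of 24.

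The locus at chr12:66221363-66302333 on the plus strand, spread 7 members over 80.97 kb, the longest span of any locus with 3 or more. The heights were 100, 121, 127, 164, 180, 158 and 77. The first 5 lay close together at the upstream end, and the remaining pair farther downstream. Members were 7 of 61 sites within 50 kb, and the other sites had a median height of 24. Height over PH0 ran from 22.1 to 92.9.

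In other, shorter loci most of the sites were tall. At chr10:47141178-47148015 on the minus strand, 6 of the 8 sites in 6.84 kb were members, with heights of 249, 216, 96, 94, 83 and 145. The first 5 shared a tag cluster with a PH0 of 7.09, so the site of 249 was 35.1 times PH0 and the site of 83 was 11.7 times. At chr12:76465672-76472828 on the minus strand, 6 of 10 sites in 7.16 kb were members (heights 166, 88, 97, 111, 114 and 182). At chr7:76191678-76194826 on the plus strand, 5 of 7 sites in 3.15 kb were members (159, 102, 83, 109 and 77), each in a tag cluster of its own.

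A further pair of loci with 6 members had similar spans but unlike shares of tall sites. At chr15:60661117-60681904 on the minus strand, 6 of 9 sites were members (99, 81, 94, 240, 95 and 100), and 5 of them were gathered at the downstream end of the 20.8-kb span. At chr8:125681338-125702839 on the minus strand, 6 of 18 sites in 21.5 kb were members (88, 89, 95, 183, 91 and 103).

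**Figure D2:**
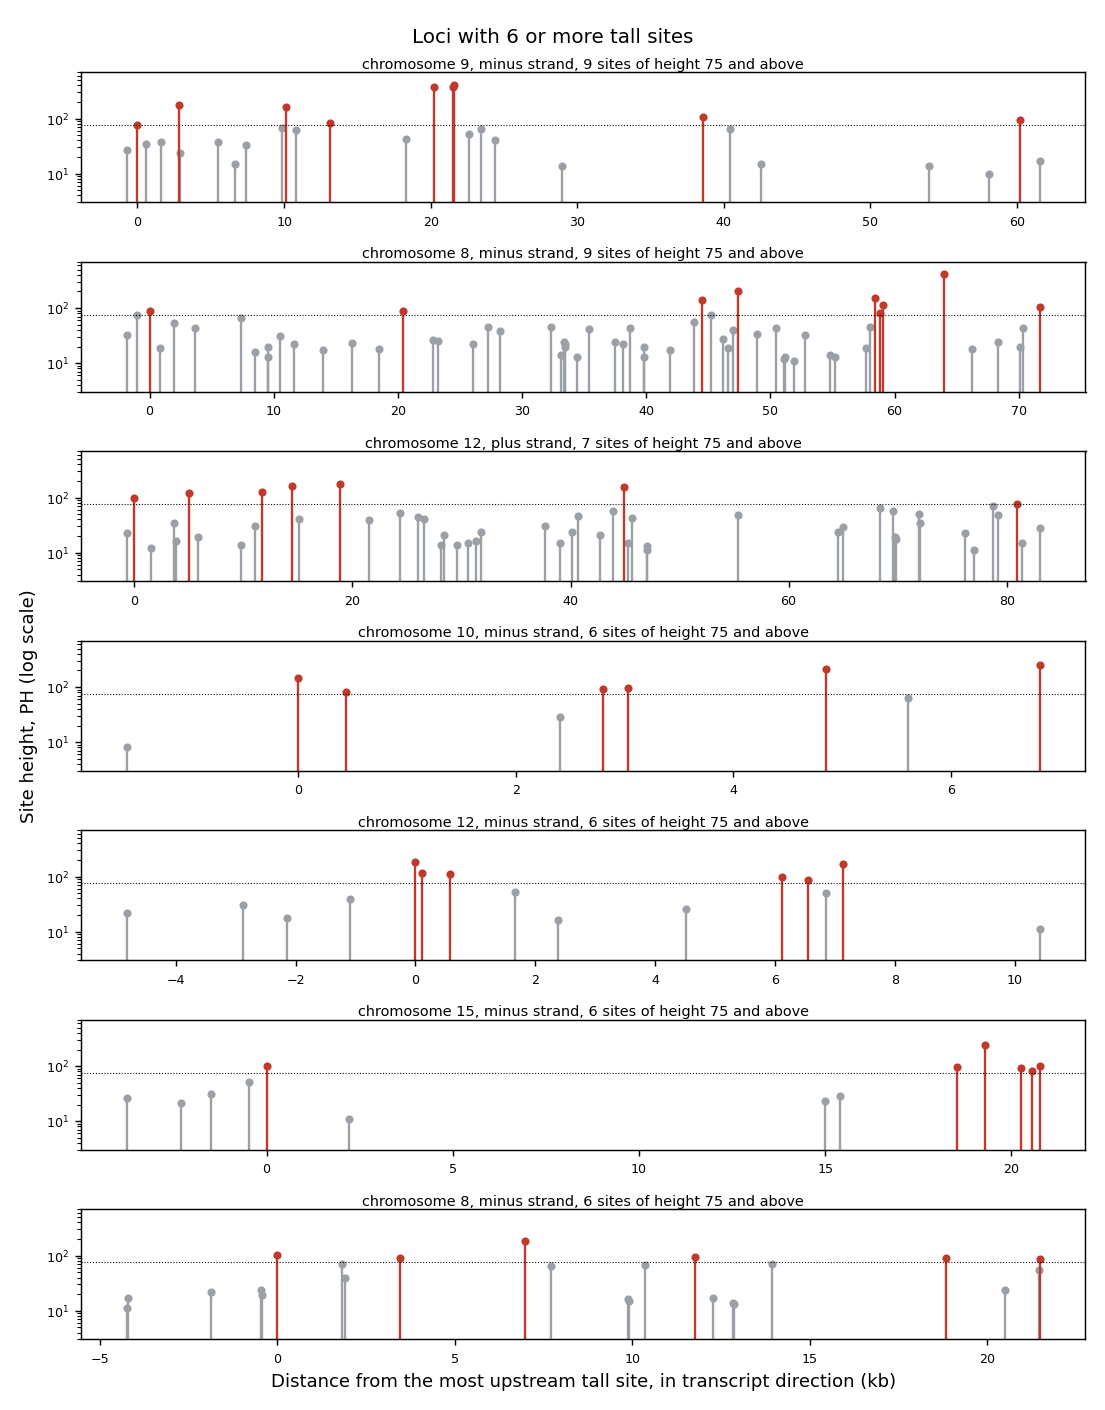
Each panel shows a locus with 6 or more members: same-strand sites as vertical lines at their distance in kb from the most upstream member, with height on a log scale, members in red and other sites in grey. The dotted line marks a height of 75. The upper 3 panels span 60.2, 71.7 and 80.97 kb with many low sites between the members, and the locus on chromosome 10 has 6 members among 8 sites.

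Among the 7 loci with 4 members, the one at chrX:73070274-73071526 on the minus strand was the tallest and the most isolated. Its members had heights of 237, 236, 159 and 486 within 1.25 kb, there was no other site between them, and 5 same-strand sites in all lay in the locus and within 50 kb of it. The loci at chr6:159036289-159039811 (plus strand, 101, 90, 197 and 147) and chr6:74484356-74487928 (plus strand, 75, 80, 133 and 95) were each under 4 kb long. The loci at chr8:117729445-117736277 (minus strand, 78, 183, 92 and 126) and chr2:55250397-55265276 (minus strand, 80, 87, 92 and 191) each had a single member above 150. The loci at chr3:23328086-23357183 (plus strand, 88, 75, 100 and 141) and chr10:28832824-28883295 (plus strand, 77, 102, 86 and 82) spread their members over 29.1 and 50.5 kb.

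In 4 loci with 3 or more members, no lower site lay between the members: the locus on chromosome X, the 3 sites on chromosome 2 described above, and 2 plus-strand loci with 3 members. At chr18:21497092-21498043 the heights were 96, 102 and 239 in a single tag cluster. At chr20:47900097-47901988 they were 83, 140 and 158. The locus on chromosome 18 nevertheless had 19 same-strand sites within 50 kb, with a median height of 10.5 for those below 75, while that on chromosome 20 had 5.

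The remaining loci with 3 members included 9 of under 10 kb. On the minus strand these were chr1:94658793-94662850 (88, 143 and 234), chr1:21491547-21501373 (107, 168 and 107), chr8:109256592-109260342 (169, 89 and 97), chr4:68517023-68523056 (128, 103 and 98) and chr12:133402163-133403801 (101, 79 and 97). On the plus strand they were chr11:35217070-35227023 (146, 101 and 79), chr2:9361767-9370105 (99, 143 and 77), chr1:207945059-207947130 (79, 93 and 91) and chr2:177172468-177175174 (82, 82 and 84). The tallest member of these 9 loci was the site of 234 in the first.

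Longer loci with 3 members were found at chr3:185496633-185538678 (139, 120 and 138), chr8:99666338-99701618 (86, 171 and 122), chr8:11000845-11054531 (153, 82 and 87), chr10:33204584-33239724 (88, 81 and 109) and chr2:160990336-161007785 (77, 105 and 80) on the minus strand. On the plus strand they were found at chr1:183158131-183193603 (81, 76 and 205), chr6:37918516-37947287 (120, 88 and 93), chr16:24751789-24763876 (94, 107 and 93), chr8:128914937-128932888 (78, 82 and 135) and chr8:129012722-129064245 (78, 82 and 101). The last pair were neighbours on the plus strand of chromosome 8.

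Short and long loci differed in how many of their sites were tall. In the 19 loci of 3 or more members that spanned under 10 kb, members made up a median of 60% of the same-strand sites in the span (range 27.3% to 100%). In the 18 longer loci the median was 21.1% (range 7.14% to 66.7%). The 2 groups had nearly the same median of the highest PH0 per locus, 3.68 and 3.63. The longer loci had more same-strand sites in and within 50 kb of the locus, with a median of 43 against 21. Spans depend on where members lie, and no test was made.

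Repeats also occurred within tag clusters. The members fell into 390 tag clusters, of which 350 held 1 member, 31 held 2, 7 held 3 and 2 held 5. Of the 443 members, 391 (88.3%) were the tallest of their cluster, 126 of them as its only site. Among the 317 members whose cluster held more than 1 site, 265 (83.6%) were the tallest. The choice by height sets these shares in large part. In the 249 clusters with a member and a site below 75, the tallest member was a median of 2.61 times the tallest of the lower sites (quartiles 1.81 and 4.05). By the rule this ratio is always above 1. The widest difference was 15.2 times.

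The value marked PH0 in the name of each site, read as the height expected from the level of its tag cluster, was higher at tall sites. It has a single value per tag cluster and is tied to height through the tags of the cluster, so the comparison is a description and not a test. The median PH0 of members was 2.46 (quartiles 1.77 and 3.36), against 0.51 (0.34 and 0.80) at the other sites, a ratio of 4.82. Over the same groups the median height differed 8.36 times, a difference that the rule itself set.

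PH0 rose in step with height over the whole list. Its median was 0.32 at heights of 4 to 9, 0.58 at 10 to 19, 0.99 at 20 to 39 and 1.56 at 40 to 74. Among the members it was 2.12 at heights of 75 to 99 and 2.92 at 100 and above. The quartile ranges of neighbouring classes overlapped from a height of 10 upward. A PH0 of at least 2 was found at 286 members (64.6%) and at 2.30% of the other sites, and a PH0 of at least 4 at 64 members (14.4%) and at 25 other sites.

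Seen from PH0, the share of tall sites rose steeply. Of the sites with PH0 under 1.5, 0.152% were members, while 5.18% were with PH0 from 1.5 to under 2.5 and 25.5% from 2.5 to under 4. From 4 to under 7, 40 of 61 sites were members (65.6%), and at 7 and above 24 of 28 were (85.7%). Even so, 77 members had a PH0 under 1.5, the lowest being 0.74. Members with a low PH0 were necessarily far above it, since they had to reach a height of 75.

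The 24 members with PH0 of 7 or more formed 12 loci and had a median height of 236.5. The highest PH0, 47.9, belonged to the site of height 399 on chromosome 1, followed by 37.97 for 2 of the 3 sites on chromosome 2 and 18.6 for 3 of the 4 sites on chromosome X. These values lay near those of the left-out regions, where PH0 was 9.18, 32.2 and 61.5 in the 3 tag clusters. Of the 24 members, 12 had at most 5 same-strand sites within 50 kb, against 41 of the 419 with lower PH0 (9.79%). The 12 include the 3 sites on chromosome 2 and the 4 on chromosome X, so they are not independent. The limit of 5 sites was chosen after the values were seen.

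**Figure D3:**
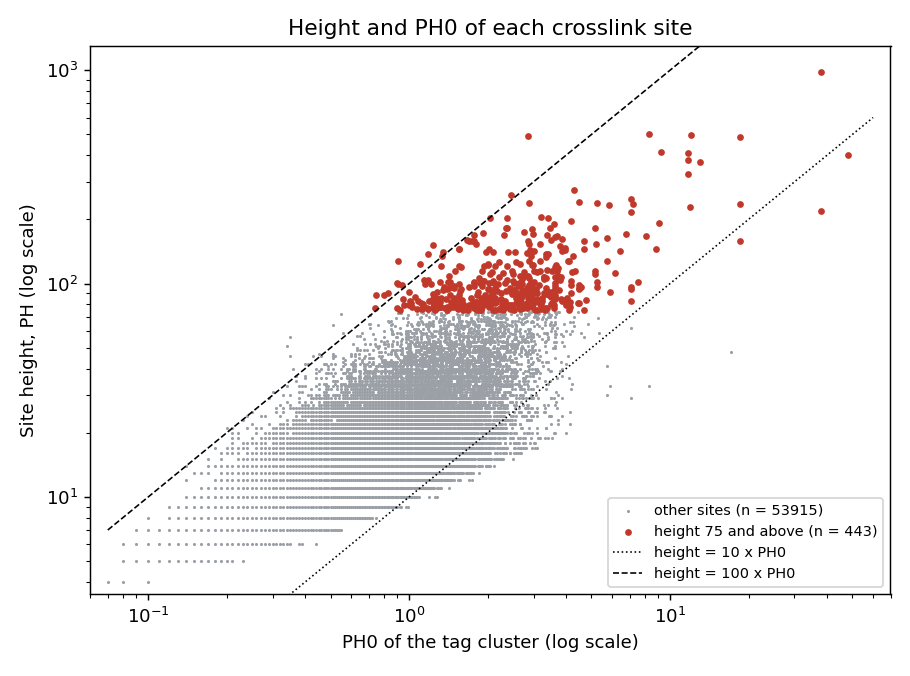
Each point is a pair of values found among the sites outside the left-out regions, with PH0 of the tag cluster on the x axis and height on the y axis, both on log scales. Members are red and other sites grey, and the lines mark heights of 10 and 100 times PH0. Of the members, 440 lie above 10 times PH0 and 15 at or above 100 times.

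Height over PH0 was higher at members than at other sites, with a median of 41.2 (quartiles 30.5 and 56.9) against 23.7 (18.2 and 30.4), a ratio of 1.74. The ratio contains the height, which chose the members, and again no test was made. By height class the median was 23.7 at 4 to 9, 22.2 at 10 to 19, 26.3 at 20 to 39, 32.4 at 40 to 74, 39.05 at 75 to 99 and 45.6 at 100 and above. The increase began above a height of 20, and the lowest class lay slightly above the next. At least 50 times PH0 was reached by 145 members (32.7%) and by 3.15% of the other sites.

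Within the members, height and the ratio ranked differently. PH0 differed 64.7-fold between the lowest and highest member, height 13.0-fold and the ratio 29.6-fold. Spearman's rho across the 443 members, which share tag clusters and a lower limit on height, was 0.411 between height and PH0 and -0.810 between the ratio and PH0. Over the other sites these were 0.788 and -0.524. The limit on height lowers the first value and strengthens the second by the way the members were chosen.

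The member farthest above its PH0 was chr7:26231677-26231697 on the minus strand, with a height of 490, a PH0 of 2.86 and a ratio of 171. It was also the highest ratio of the list. It had no same-strand site within 5 kb and 2 within 50 kb, the nearest of them 6215 nt upstream with a height of 46. The next were chr16:81574956-81574976 on the plus strand with a ratio of 140 (height 127), and on the minus strand chr2:110318290-110318310 with 124 (height 152), chr9:126191023-126191043 with 117 (height 88) and chr4:1236574-1236594 with 117 (height 138). Apart from the first, these had PH0 values of 0.75 to 1.23.

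The lowest ratios belonged to sites of high PH0. They were 5.79 at chr2:133012948-133012968 (height 220), 8.33 at chr1:91852849-91852869 (height 399) and 8.56 at chrX:73070786-73070806 (height 159), all on the minus strand. These 3 were the only members below a ratio of 10. A ratio of at least 10 was found at 99.3% of members and at 98.5% of the other sites, whose lowest value was 2.80.

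**Figure D4:**
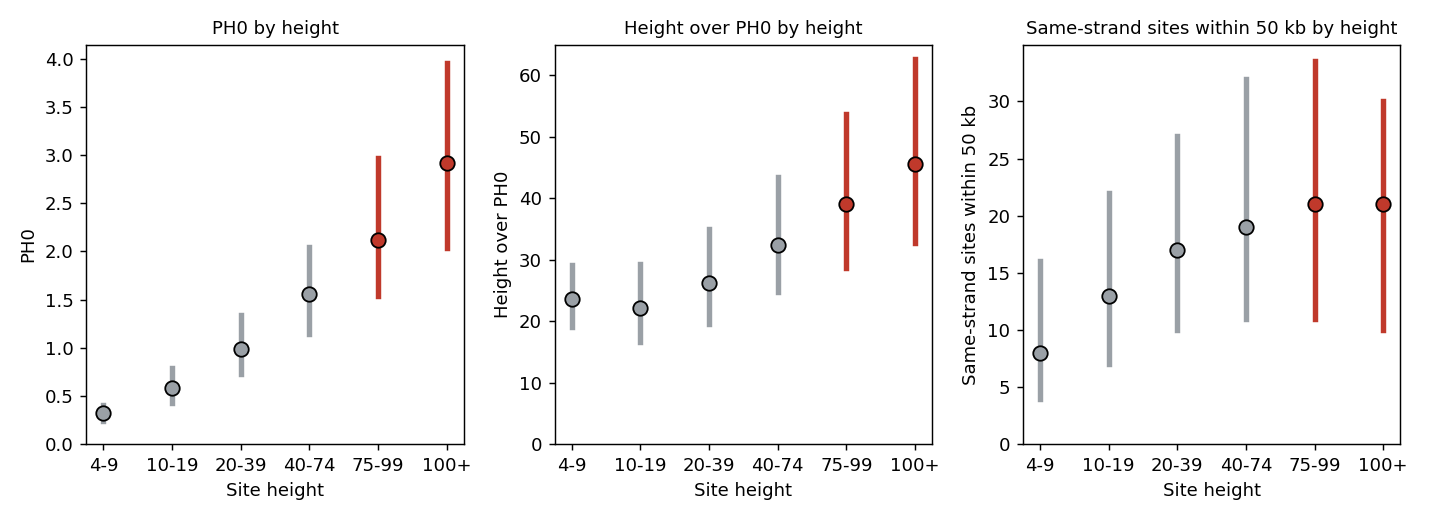
Dots give medians and bars the quartiles of PH0 (left), height over PH0 (middle) and the number of same-strand sites within 50 kb (right) for 6 classes of height, members in red. PH0 and the ratio rise from class to class above a height of 20, to 2.92 and 45.6, while the number of neighbours levels off at 21.

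In the authors' deposited values, P was listed at 1e-100, the smallest value in the file, for 261 members (58.9%), against 16.2% of all sites outside the left-out regions. The remaining 182 members had P from 1.03e-14 to 6.0e-12. The share at 1e-100 did not rise steadily with height: no site of height 4 to 9 had this value, and the share was 9.05% at 10 to 19, 60.4% at 20 to 39, 66.1% at 40 to 74, 62.8% at 75 to 99 and 53.1% at 100 and above. Of the 264 tag clusters that held a member and at least 1 further site, 98 gave every site the same P although the heights differed. An example is the tag cluster on chromosome 10 in which sites of 249 and 83 both had 2.58e-12. In another, on chromosome 16, sites of 238 and 153 were both listed at 1e-100, so an equal P can be a tie at the smallest value. Over the whole list, 1556 of 9351 tag clusters of 2 or more sites had a single P.

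Tall sites had more same-strand sites around them than the other sites, by median. Within 50 kb the median number was 21 (quartiles 11 and 31) for members, 12 (6 and 21) for the other sites and 19 (11 and 32) for sites of height 40 to 74. Within 5 kb it was 5, 3 and 5 in the same order. The nearest same-strand site lay at a median of 559 nt from a member, 759 nt from the other sites and 522 nt from sites of height 40 to 74. The differences from the class just below were small against the quartile ranges.

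A same-strand site within 1 kb was found at 319 members (72.0%, 95% Wilson interval 67.7% to 76.0%), at 57.2% of the other sites and at 75.3% of sites of height 40 to 74. This excess over the other sites lay within tag clusters. A neighbour of the same tag cluster within 1 kb was found at 62.8% of members and 40.6% of the other sites. A neighbour of another tag cluster was found at 20.3% of members and 25.2% of the other sites, so the direction turned once the site's own cluster was left out. Members lay in clusters of more sites, as the shares below show, so more of their neighbours can count as the same cluster. The split by cluster is thus a description, set in part by cluster size, and was not tested. Sites of height 40 to 74 were split much as the members were, with 64.3% and 22.8%. Alone in their cluster were 28.4% of members, 56.9% of the other sites and 28.1% of sites of height 40 to 74. Clusters of 4 or more sites held 29.3% of members, 9.41% of the other sites and 27.7% of sites of height 40 to 74.

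From 60 nt outward the heights of the neighbours fell with distance from a member. The neighbours include other members, which have a height of at least 75 by the rule. In 11 pairs, consecutive members of a locus lay 60 to under 200 nt apart. The choice by height thus raises the inner medians in part, and no test was made. On the upstream side the median height of same-strand sites was 38 at 60 to under 200 nt, 33.5 at 200 to under 500 nt, 28 at 500 to under 1000 nt, 26 at 1000 to under 2000 nt, 22 at 2000 to under 5000 nt and 17 at 20 to 50 kb. Downstream it was 59 at 60 to under 200 nt (27 neighbours), 37, 30, 27, 21 and 18 over the same distances. Nearer than this, at 26 to 59 nt, the median was 44 upstream (4 neighbours) but only 24 downstream (19 neighbours), below the next distance. Around sites of height 40 to 74 the fall from 60 nt was alike but lower, from 30 to 16 upstream and from 28 to 16 downstream, and at 26 to 59 nt downstream the median was 20. Around sites of height 10 to 19 the medians stayed between 12 and 15 at every distance on both sides. At every distance from 60 nt to 50 kb the neighbours of members were taller, by median, than those of sites of height 10 to 19.

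**Figure D5:**
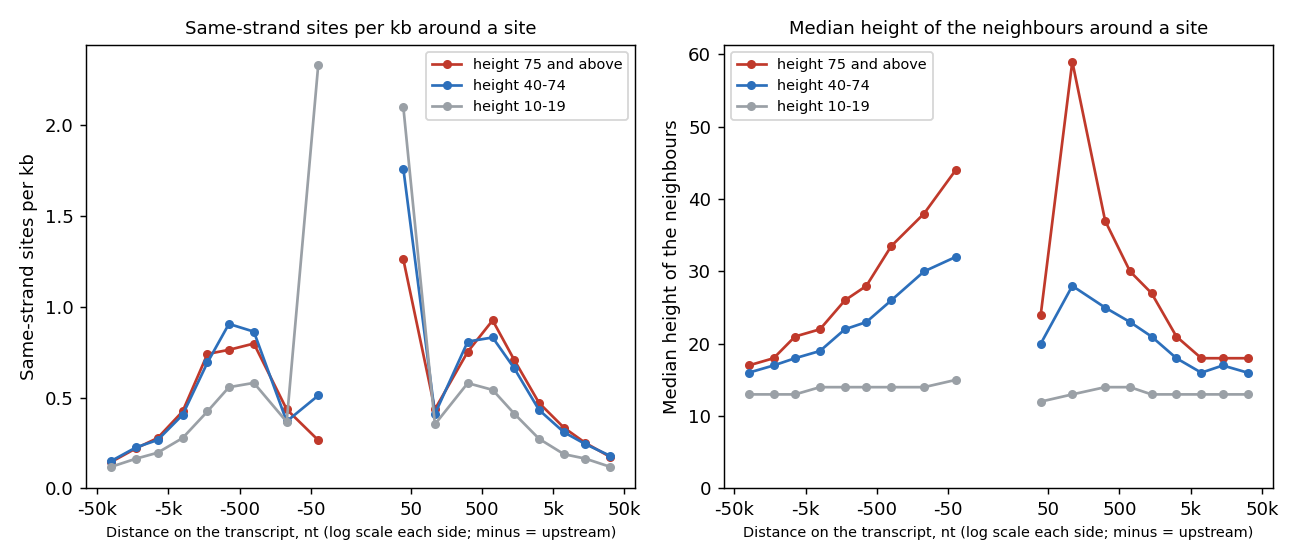
The left panel gives same-strand sites per kb and the right panel the median height of these neighbours, against distance on the transcript with upstream to the left, for members (red), sites of height 40 to 74 (blue) and sites of height 10 to 19 (grey). Median neighbour height around members falls to 17 and 18 at 20 to 50 kb, and the innermost points of the members rest on 4 upstream and 19 downstream neighbours.

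Very close neighbours of tall sites lay mostly downstream. A next site 26 to 59 nt away was found downstream of 19 members and upstream of 4, so 82.6% were downstream. For sites of height 40 to 74 the numbers were 117 and 34 (77.5%). The member is by choice the taller of most such pairs, so this share restates which site of a close pair is taller. At 60 to under 200 nt the numbers were even, with 26 downstream and 27 upstream.

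Close partners were rare around members. The nearest same-strand site was 26 to 59 nt away for 23 members (5.19%), against 7.63% of sites of height 40 to 74 and 11.7% of the other sites. In only 1 such pair were both sites members: chrX:73070759-73070779 (236) and chrX:73070786-73070806 (159), 27 nt apart. The tallest of the other close members was chr9:21555578-21555598 (175), with a site of 24 lying 38 nt downstream. At chr4:1236574-1236594 a member of 138 had a site of 39 at 35 nt downstream. A nearest site at 60 to under 200 nt was found for 11.1% of members, 9.26% of sites of height 40 to 74 and 6.96% of the other sites.

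No member had an opposite-strand site within 10 kb, and the closest was 10140 nt away. A count of 0 of 443 allows a share of up to 0.677%, by counting error alone, and the share over the other sites, 0.360%, lies under that limit. So does the share of sites of height 40 to 74, 0.461% (9 of 1954). Within 50 kb, 39 members (8.80%) had an opposite-strand site, against 8.09% of sites of height 40 to 74 and 6.92% of the other sites.

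At the other end, 13 members (2.93%) had no same-strand site within 50 kb, a share close to the 2.91% of all other sites. Among sites of height 40 to 74 it was 11 of 1954 (0.563%), among those of 75 to 99 it was 4 of 266 (1.504%), and among those of 100 and above 9 of 177 (5.08%). All 13 were alone in their tag cluster. The tallest were the site of 399 on chromosome 1 and that of 328 on chromosome 8, followed by chr19:54971454-54971474 on the plus strand (274), chr10:69395294-69395314 on the minus strand (228) and chr22:43011268-43011288 on the plus strand (192).

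The other 8 of these lone members were chr8:39670274-39670294 (142), chr5:135416206-135416226 (122) and chr5:22820623-22820643 (83) on the minus strand, and chr11:49798870-49798890 (114), chr5:57991619-57991639 (100), chr19:37191520-37191540 (96), chr2:234642203-234642223 (88) and chr4:7584308-7584328 (75) on the plus strand. The nearest same-strand site was 176 to 5886 kb away. Lone members had a median PH0 of 4.54 (range 2.08 to 47.9), against 2.39 for the 430 members with a site within 50 kb. Their median ratio of height to PH0 was 26.6 (range 8.33 to 63.7), against 41.3. Whether their reads map to a single place in the genome was not tested.

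Counted by site, sparse surroundings were most frequent among the lowest and the tallest sites. At most 5 same-strand sites within 50 kb were found at 35.1% of sites of height 4 to 9, 18.9% at 10 to 19, 11.01% at 20 to 39, 8.85% at 40 to 74 and 8.65% at 75 to 99. The share was 12.7% for the 150 members of height 100 to under 200 and 40.7% (11 of 27) for those of 200 and above. These 27 members formed 19 loci. Several of the 11 shared a locus on chromosome 2 or X, so they are not independent. The limit of 5 sites was chosen after the values were seen, and the split at 200 was not among the planned height classes. Members of 200 and above thus included both sites in crowded regions, such as those of the loci on chromosomes 8 and 9, and sites with few others around them, such as those on chromosomes 2 and X.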

How the data were processed

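The deposited file was a list of crosslink sites of 21 nt with coordinates on GRCh37, the build named in the submitters' processing notes. The aligner, the caller and the handling of duplicates and of reads mapping to several places are not given in the sources used here. Each score deposited by the authors is a whole number that repeats the PH entry of the site name; PH0, P and the tag cluster were read from the names. No value per library is given, and the list was taken as pooled over the 2 libraries, which no source states. Members were sites with a score of at least 75 outside the 2 regions of chromosome 11. Distances were measured between starts on the same strand. Members of a strand with gaps of at most 50 kb formed a locus. The sites named are the 15 tallest, the loci with 3 or more members, members without a same-strand site within 50 kb and the 4 on each side of the limit; sites with extreme ratios or close partners were chosen after their values were seen. The members and measures were chosen with earlier results of these data known. No test was made, since height chose the members and there is a single group. Wilson intervals cover counting error only. Planned measures on genes, introns and GU-rich words were not run without a GRCh37 genome. The counting steps were tested on simulated data. Counting used pandas 2.3.3 and numpy 2.4.6 under Python 3.11.15, intervals scipy 1.17.1, and plots matplotlib 3.10.9.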

Additional observations from a re-analysis of the deposited data

How the results depend on the processing

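Of 25 alternative values, 8 stayed within 1.5 times the reported count or within the 95% interval of the reported value, and 17 moved. The number of members was 1401 at a height of at least 50 and 177 at 100, and at 100 the loci with 2 or more members numbered 29 in place of 85. The median PH0 was 2.92 at 100 and 2.25 with only the tallest member of each locus. The median of height over PH0 was 45.6 at 100, 43.3 with only the tallest site of each tag cluster and 44.4 with only the tallest member of each locus. The share of members with a same-strand site within 1 kb was 43.8% within 500 nt (38.5% of other sites), 95.3% within 5 kb (84.4%), 66.5% for the tallest member of each locus and 20.3% when neighbours of another tag cluster alone were counted (25.2%), the only setting that turned the direction against the other sites. The share of chromosome 8 sites was 5.05% at a height of at least 50 (2.58% of all sites), 0.765% at 100 (0.326%) and 0.798% by loci (0.522%). The median number of same-strand sites within 50 kb was 18 for the tallest member of each locus, and also 18 when neighbours of height 10 or more were counted, against 8 for other sites. The settings within chromosome 8, by locus, by other tag cluster and for sites within 50 kb were chosen after seeing the data. No paired analysis was possible because both libraries belong to 1 group and share a single list, so replicates could not be left out in turn either. Settings on gene types, introns and sequence windows need a GRCh37 genome and were not run.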
